A study of Mus musculus with 6 samples.

Results

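Potassium channel genes were followed in tumours that the human neuroblastoma cell line SK-N-BE(2), which carries extra copies of MYCN, had formed in mice. Members were all genes with a symbol made of KCN, further letters and a final number, read from probe sets to which the platform annotation gave that symbol alone. This gave 89 probe sets of 85 genes among 18417 named genes, and for KCNG1 and KCNMB3, which had several, the probe set with the highest mean over the 6 arrays was kept. All 85 genes were tested and none was removed for low signal. They were sorted by symbol into 8 families, namely 14 voltage-gated pore subunits (KCNA, KCNB, KCNC and KCND), 10 electrically silent modifiers (KCNF, KCNG, KCNS and KCNV), 8 KCNH and 3 KCNQ channels, 6 calcium- or sodium-activated channels (KCNMA, KCNN and KCNT), 13 inward rectifiers (KCNJ), 15 tandem-pore-domain channels (KCNK) and 16 auxiliary subunits (KCNAB, KCNE, KCNIP and KCNMB).

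Every tumour came from 1 cell line implanted in the adrenal gland of an NSG mouse, a strain without T, B and natural killer cells that keeps its own myeloid, vascular and stromal cells. In the 3 mice of the BL-8040 group, this inhibitor of the chemokine receptor CXCR4 was given under the skin at 400 µg, from 7 days after implantation and for 14 days in a row. The 3 other mice were controls, and neither what they received instead nor the age of any mouse is stated in the labels. RNA of each tumour was read on 1 array designed for human transcripts.

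Potassium channels let potassium ions leave or enter the cell along their gradient and so set the resting potential and end the action potential. Voltage-gated pore subunits open on depolarisation, inward rectifiers and tandem-pore-domain channels hold the membrane near rest, and calcium-activated channels answer calcium entry. Auxiliary subunits form no pore of their own but change gating and transport of the pore proteins. In neuroblastoma cells the KCNH2 (hERG) current is a well-known part of the resting conductance, and in blood vessel walls KCNJ8 forms the pore of the ATP-sensitive channel that couples metabolism to membrane potential.

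The arrays agreed closely in scale, with medians over named genes between 6.01 and 6.07 log2 units. BL-8040 replicate 3 stood apart on the first principal component of all genes, at -22.7 against -0.743 to 10.1 in the other 5 arrays, so values without this array are given where it moves a result. Most noradrenergic neuroblastoma markers were bright in the mean of the 6 arrays. The 10 measured genes of that list lay between percentiles 49.2 (ELAVL4) and 99.9 (MYCN) of all genes, 9 of them at or above the median signal. Of these 10 genes 9 stood lower in the treated group. The median difference of the 10 was -0.26, or -0.14 without BL-8040 replicate 3, and 0 passed at an adjusted limma p under 0.05. The part of this in the channel values was not tested. The 8 measured adrenal cortex markers lay between percentiles 8.58 and 32.6. Of host cell markers, 4 of 10 endothelial, 5 of 8 myeloid, 6 of 7 fibroblast and 1 of 5 measured Schwann cell and glial genes stood higher after BL-8040 and the others lower, with 0 at a limma adjusted p under 0.05. Without BL-8040 replicate 3 the numbers standing higher were 2 of 10, 4 of 8, 1 of 7 and 0 of 5, in the same order. In a whole tumour, fewer cells of a type and less RNA per cell cannot be told apart. The array was designed for human transcripts while host cells are of the mouse. How far the probe sets of the host and adrenal cortex lists read mouse RNA or tumour RNA was not tested.

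No potassium channel gene passed the test: 0 of 85 members had a limma Benjamini-Hochberg adjusted p under 0.05, as had 0% of all 18417 genes, and the smallest adjusted p was 0.644 in both sets. At an unadjusted limma p under 0.05, 9 of 85 members (10.6%) stood lower after BL-8040, against 5.08% of all genes, and 0 stood higher, against 2.64%. The treated values lay below every control value in 10 members (11.8%, against 9.05% of all genes) and above every control in 0 (against 4.93%). Over all members 60 of 85 differences were below 0 (70.6%, against 58.5% of all genes), with a median of -0.05 log2 units against -0.02. Without control replicate 3 the share of members below 0 was 57.6%, against 58.6% of all genes. These counts also depended on how the arrays were scaled. After quantile normalization 51 members (60.0%, against 50.8% of all genes) were lower, with a median of -0.03, and after median centring 56 (65.9%, against 51.0%). After quantile normalization the treated values lay below every control in 7 of 85 members, all among the 10 above, against 7.34% of all genes. After median centring this held for 8 of 85, 7 of them among the 10 above, against 6.87% of all genes. In the higher direction the groups were apart after quantile normalization in 2 of 85 members, KCNJ1 and KCNJ11, against 6.75% of all genes. After median centring they were apart in 3 of 85, KCNH8, KCNJ1 and KCNK1, against 6.42%.

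KCNJ8 had the largest difference of the 85 genes. Its log2 signal was 7.73, 7.73 and 7.39 in the 3 treated tumours and 8.04, 8.27 and 8.13 in the 3 controls. The highest treated value lay 0.30 below the lowest control, and BL-8040 replicate 3 was the lowest of all. The means were 7.62 ± 0.20 and 8.15 ± 0.12 (SD, n = 3 each), a level of 0.693 times control. The difference of -0.53 ± 0.11 (SE) had a 95% interval from -0.78 to -0.28, an unadjusted limma p of 9.6e-04 and an adjusted p of 0.644. Of the 18417 genes KCNJ8 ranked 15th by p and 27th by how far its difference lay below 0. In an exact permutation test of the arrays, two-sided, p was 0.1, and no smaller p is possible with 3 arrays per group. Without BL-8040 replicate 3 the difference was -0.42, and leaving out any other array in turn kept it between -0.59 and -0.47. Its probe set was bright, at percentile 81.3 of all genes, while the other 12 inward rectifiers lay at or below percentile 40.0.

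**Figure D1:**
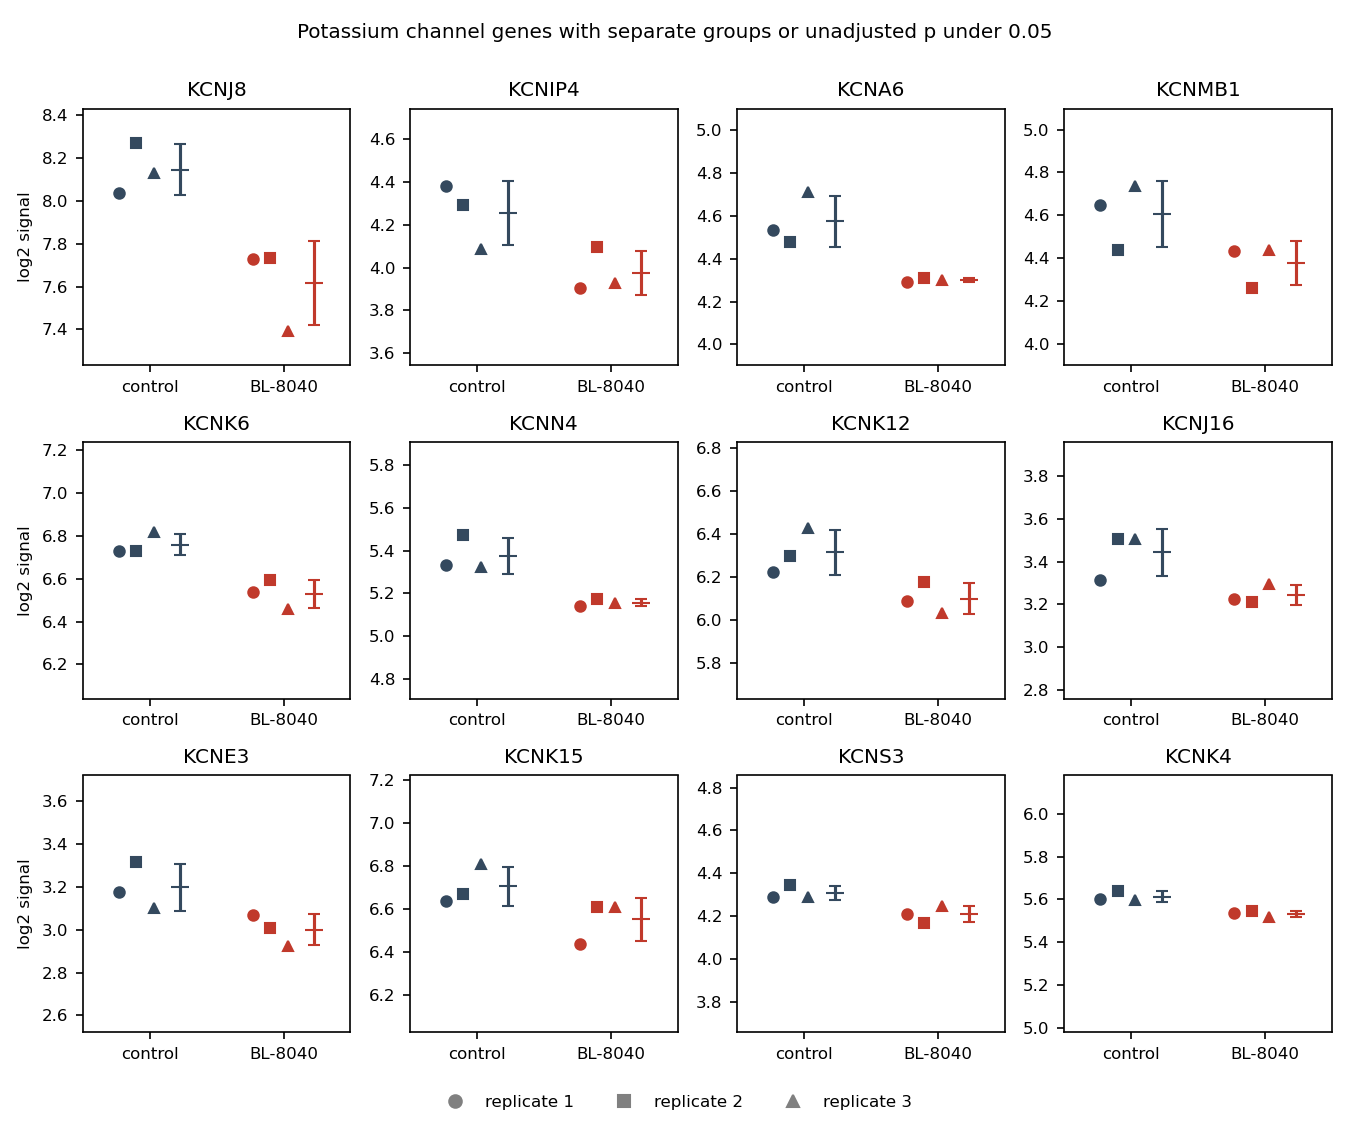
Log2 signal of the 12 potassium channel genes with an unadjusted limma p under 0.05 or with groups that do not overlap; each panel spans the same height of log2 units, points are single arrays (circle, square and triangle for replicates 1, 2 and 3) and bars are the mean ± SD of 3 arrays. KCNJ8 has the widest gap between groups, 0.30 log2 units, and in KCNIP4 and KCNMB1 the groups overlap.

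The KCNJ8 pore works only together with a sulfonylurea receptor, in vessels the product of ABCC9. ABCC9 was 5.89, 5.80 and 5.56 after BL-8040 and 6.09, 6.34 and 5.95 in controls, so its groups did not overlap either. Its difference was -0.38 ± 0.12 (SE), 0.771 times control, with an unadjusted limma p of 0.013 and an adjusted p of 0.644; without BL-8040 replicate 3 it was -0.28. In the RefSeq table of the mouse assembly GRCm38.p6, Kcnj8 and Abcc9 lie on the same chromosome with 0 protein-coding genes between them. That is the genome of the host, and the positions of the human genes, for which the array was designed, were not checked. The second pair of this channel type, KCNJ11 and ABCC8, is known from pancreatic beta cells and neurons. KCNJ11 was 4.64 ± 0.04 with BL-8040 against a control level of 4.56 ± 0.08 (SD, n = 3 each), with groups that overlapped as deposited and after quantile normalization stood apart, the treated values higher. Its receptor ABCC8 differed by -0.27 ± 0.14 (SE), with overlapping groups.

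KCNJ8 and ABCC9 also mark mural cells, the pericytes and smooth muscle cells of vessels. Of the 13 markers listed for these cells, all measured, 5 were higher and 8 lower, with a median difference of -0.04, and 0 passed over all genes. Without BL-8040 replicate 3 again 5 were higher and 8 lower, with a median of -0.08. Set against each gene's own 6-array mean, the list median ran from -0.09 to -0.0056 in treated tumours and from -0.01 to 0.07 in controls. MCAM, an adhesion molecule of mural cells also found on tumour cells, was 7.47, 7.49 and 6.68 against 7.67, 7.95 and 7.59, a difference of -0.53 that shrank to -0.26 once BL-8040 replicate 3 was left out. COX4I2, a respiratory chain subunit of pericytes, differed by -0.26 ± 0.11 (SE). RGS5, a regulator of G-protein signalling in pericytes, differed by 0.05 ± 0.07 (SE), PDGFRB, the PDGF receptor of mural cells, by -0.04 ± 0.10, and the smooth muscle actin gene ACTA2 by 0.22 ± 0.16. Without BL-8040 replicate 3 these differences were 0.02, 0.07 and 0.03. TAGLN, a contractile protein gene, stood higher in all treated arrays, at 4.75, 4.65 and 5.11 against 4.52, 4.58 and 4.53, and its difference of 0.30 was 0.16 without the same array. Low-oxygen genes, 9 of 9 lower with a median difference of -0.35 (-0.20 without BL-8040 replicate 3), stood on the same side as KCNJ8; the median deviation of that list was -0.14, 0.17 and -0.69 with BL-8040 against 0.04, 0.45 and 0.18 in control tumours. The part of mural cells and of oxygen in the KCNJ8 values was not tested, and neither was the share of mouse RNA in this signal.

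**Figure D2:**
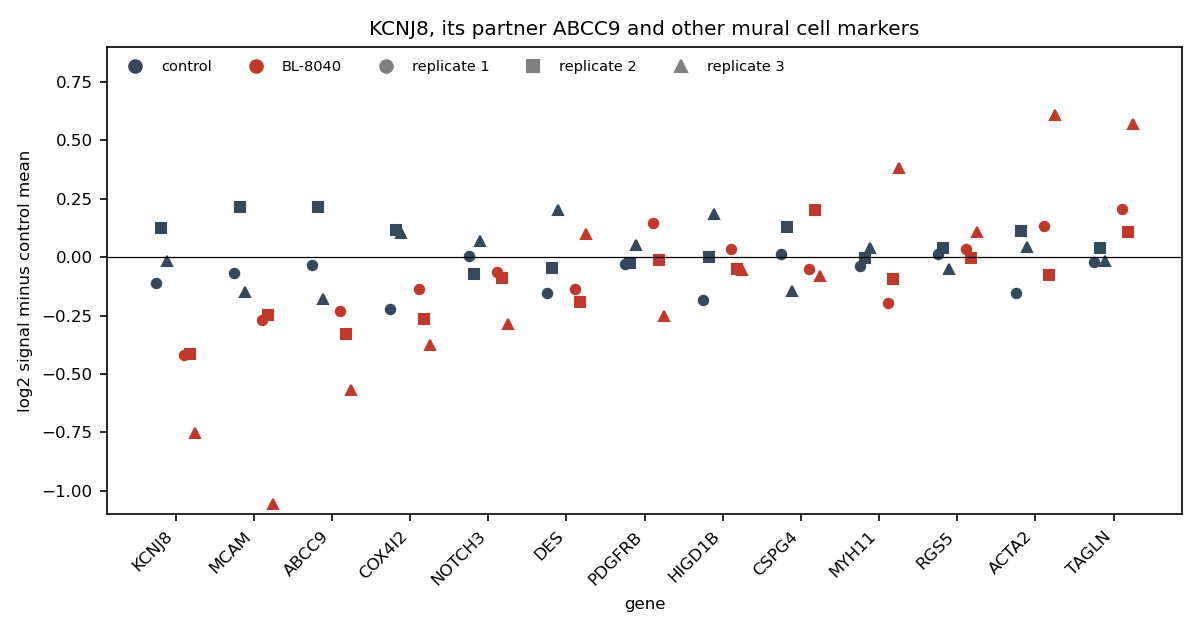
Log2 signal minus the control mean (y axis) of 13 mural cell markers (x axis), ordered by difference; dark points are the 3 controls, red points the 3 BL-8040 arrays, and shapes give the replicate. KCNJ8, MCAM and ABCC9 stand below all controls in every BL-8040 array, RGS5 and PDGFRB scatter around 0, and TAGLN stands above.

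Of the inward rectifiers, KCNJ8 included, 8 of 13 differences were below 0. The family median of -0.0039 turned to 0.02 after median centring and 0.03 after quantile normalization. It also moved with single arrays. Without BL-8040 replicate 2 it was -0.07 and without control replicate 2 -0.09, each with 10 of 13 lower. Without control replicate 3 it was 0.04, with 6 of 13 lower. KCNJ16, a subunit that joins KCNJ10 in kidney and glia, was 3.23, 3.21 and 3.30 after BL-8040 and 3.31, 3.51 and 3.51 in controls, a difference of -0.20 ± 0.08 (SE) with an unadjusted limma p of 0.035. Its groups were 0.02 apart at percentile 11.9 of all signals, and they overlapped after median centring. KCNJ10 itself, the glial channel that buffers potassium, differed by -0.21 ± 0.10 (SE) and KCNJ2, the strong rectifier of heart and muscle, by -0.21 ± 0.13, both with overlapping groups. The G-protein-gated KCNJ5, known from heart and adrenal cortex, was 4.63 ± 0.13 and 4.73 ± 0.06 (SD, n = 3 each); KCNJ6 and KCNJ9, its neuronal relatives, differed by 0.01 and -0.19. The kidney channel KCNJ1 had the highest difference of the family, 0.17 ± 0.09 (SE), at percentile 2.81 of all signals. Its groups overlapped as deposited and stood apart after either rescaling, the treated values higher.

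The tandem-pore-domain channels held the most members with separate groups, 4 of 15, all lower after BL-8040 against 9.05% of all genes. KCNK6 (TWIK-2), a background channel found in vessels and macrophages, was 6.54, 6.59 and 6.46 in treated tumours and 6.73, 6.73 and 6.82 in controls. The gap between its groups was 0.14, and the difference of -0.23 ± 0.07 (SE) had a 95% interval from -0.39 to -0.07 and an unadjusted limma p of 0.011. KCNK12 (THIK-2), a subunit with little current of its own, was 6.09, 6.18 and 6.03 against 6.22, 6.30 and 6.43, a difference of -0.22 ± 0.08 (SE) with an unadjusted limma p of 0.026, and KCNK13, its closest relative, differed by -0.12 ± 0.12, and by 0.013 without control replicate 3. KCNK15, which gives no current when expressed alone, was 6.44, 6.61 and 6.61 against 6.64, 6.67 and 6.81. The mechanosensitive KCNK4 (TRAAK) was 5.54, 5.54 and 5.52 against 5.60, 5.64 and 5.60. Unadjusted limma p were 0.10 and 0.25 for KCNK15 and KCNK4, and the groups of KCNK15 overlapped after either rescaling. The acid-sensitive channels KCNK3 and KCNK9, both expressed in adrenal cortex, differed by 0.03 ± 0.11 and 0.0048 ± 0.10 (SE). In the whole family 9 of 15 differences were below 0, with a median of -0.04 that turned to 0.01 without control replicate 3.

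Voltage-gated pore subunits stood lower in 11 of 14 cases, with a median of -0.08 that went to -0.01 without control replicate 3. Their lowest member was KCNA6, a delayed rectifier of neurons, at 4.29, 4.31 and 4.30 after BL-8040 against 4.53, 4.48 and 4.71. The treated arrays lay within a narrow band, 0.17 below the lowest control. The difference of -0.27 ± 0.08 (SE) had a 95% interval from -0.45 to -0.09 (unadjusted limma p of 0.0080, adjusted 0.644), at percentile 25.1 of all signals. Of its 6 KCNA relatives 5 also differed below 0, against 58.5% of all genes. KCNA1, the axonal channel, differed by -0.20 ± 0.10 (SE), and by -0.099 without control replicate 3. KCNA4, a fast-inactivating channel, differed by -0.18 ± 0.14 (SE). The KCNA4 difference rested on control replicate 3, whose value was 4.68 against 4.08 to 4.27 in the other 5 arrays, and was -0.0030 without it. KCNA3, known from lymphocytes, differed by -0.04 ± 0.09 (SE), and by 0.024 without control replicate 3. KCNC4, a fast-gating channel and the brightest probe set of the family at percentile 73.7, was 7.36 ± 0.09 and 7.43 ± 0.12 (SD, n = 3 each). KCND2, the pore of the somatodendritic A-type current, lay at 3.17 ± 0.08 and 3.29 ± 0.12.

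The silent modifiers join KCNB pores and give no current alone. KCNG1 had the brightest probe set of all 85 members, at percentile 97.4, and was 9.84, 9.75 and 9.84 after BL-8040 and 9.70, 9.82 and 9.80 in controls. Its difference of 0.04 ± 0.07 (SE) had a 95% interval from -0.12 to 0.20, and its second probe set differed by 0.08. KCNS3 was 4.21, 4.17 and 4.25 against 4.29, 4.34 and 4.29, with groups 0.04 apart, an unadjusted limma p of 0.18, and groups that overlapped after either rescaling. In this family 6 of 10 differences were below 0 and the median was -0.04; without BL-8040 replicate 2 it was 0.04.

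**Figure D3:**
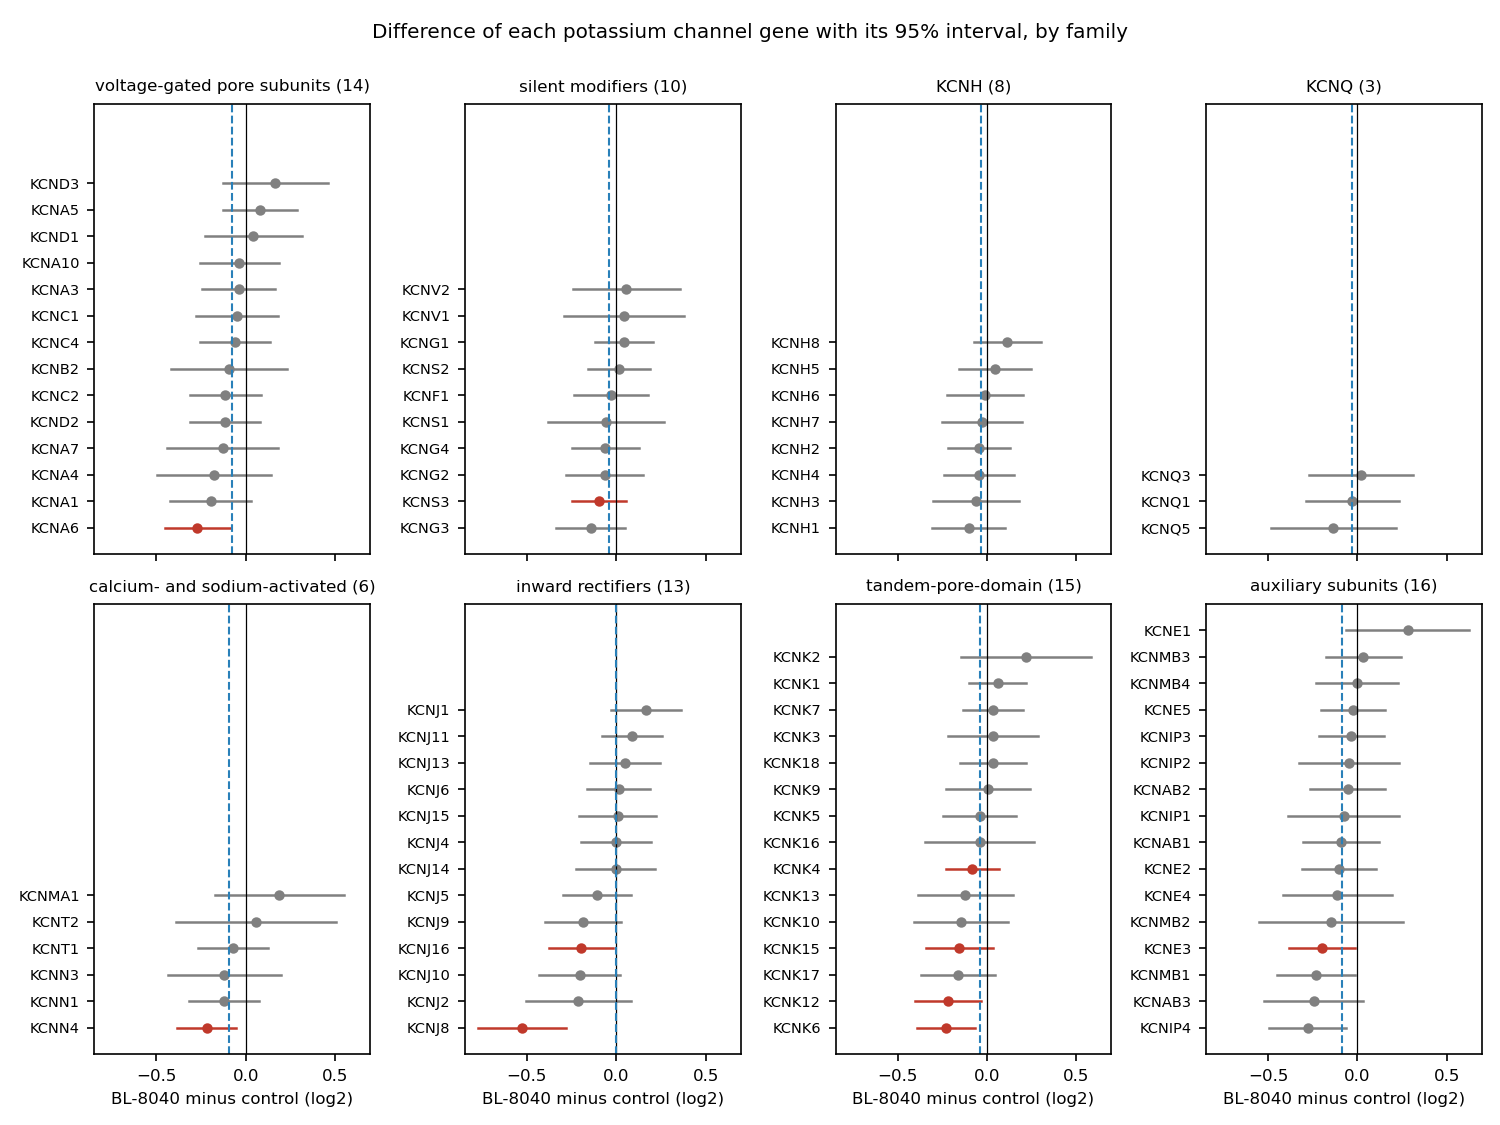
Difference between BL-8040 and control (x axis, log2) for each of the 85 genes, in a panel per family; bars are 95% intervals of the limma fit, red marks the 10 genes whose groups do not overlap, and the dashed line is the family median. Intervals of most genes span 0, and every red gene lies below 0.

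KCNH2, which carries the hERG current, had a bright probe set at percentile 86.5 and overlapping groups: 8.26, 8.30 and 8.14 after BL-8040 and 8.22, 8.32 and 8.29 in controls. Its difference of -0.04 ± 0.08 (SE) carried a 95% interval of -0.21 to 0.13 (limma adjusted p of 0.880). KCNH8, of the ELK branch, was the other bright member, at percentile 87.8, with 8.38, 8.40 and 8.50 against 8.36, 8.18 and 8.39 and a difference of 0.12 ± 0.08 (SE). KCNH1, the EAG channel studied in many tumours, lay at percentile 17.0 and differed by -0.10 ± 0.09 (SE). The KCNH median was -0.04, and 0.03 without BL-8040 replicate 3, where 2 of 8 members in place of 6 were below 0. Of the KCNQ genes, which form the M-current of neurons and a cardiac channel, KCNQ3 differed by 0.02 ± 0.13 (SE) and KCNQ1 by -0.03 ± 0.11. KCNQ5 was 6.91, 6.99 and 6.37 against 6.96, 6.73 and 6.99, and only BL-8040 replicate 3 lay below the controls.

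KCNN4, the intermediate-conductance calcium-activated channel of blood, epithelial and many tumour cells, was 5.14, 5.17 and 5.16 after BL-8040 and 5.33, 5.47 and 5.32 in controls. The treated values lay close together, 0.15 below the lowest control, and the difference of -0.22 ± 0.07 (SE) had a 95% interval from -0.38 to -0.05 and an unadjusted limma p of 0.015. Its small-conductance relatives KCNN1 and KCNN3, which shape the afterhyperpolarisation of neurons, differed by -0.12 ± 0.09 and -0.12 ± 0.14 (SE), with overlapping groups. The KCNN3 difference turned to 0.036 without control replicate 3. KCNMA1, the large-conductance BK pore, was 5.995, 6.14 and 6.63 against 6.17, 6.16 and 5.86, a difference of 0.19 ± 0.16 (SE) that was -5e-05 without BL-8040 replicate 3. The sodium-activated KCNT2 was 6.24, 6.54 and 5.65 against 6.25, 6.10 and 5.91, and its difference of 0.06 became 0.30 without the same array.

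Of the auxiliary subunits 14 of 16 differed below 0 (87.5%, against 58.5% of all genes), with a median of -0.09. After quantile normalization 12 of 16 were lower (75%, against 50.8% of all genes), with a median of -0.05. Without control replicate 3 it was 11 of 16 (68.75%, against 58.6% of all genes), with a median of -0.08. KCNIP4, a calcium sensor that binds KCND pores, was 3.90, 4.09 and 3.93 after BL-8040 and 4.38, 4.29 and 4.09 in controls. Its groups overlapped at 4.09, and the difference of -0.28 ± 0.10 (SE) had an unadjusted limma p of 0.018. KCNMB1, the BK subunit of smooth muscle, was 4.43, 4.26 and 4.44 against 4.65, 4.44 and 4.74, a difference of -0.23 ± 0.10 (SE) with an unadjusted limma p of 0.042. KCNE3, a partner of KCNQ1 in epithelia, was 3.07, 3.01 and 2.93 against 3.18, 3.32 and 3.10, at percentile 9.10 of all signals, and its groups, 0.03 apart, overlapped after quantile normalization. KCNMB4, the neuronal BK subunit, was 6.73 ± 0.06 and 6.74 ± 0.20 (SD, n = 3 each). The highest difference of all 85 genes was that of KCNE1, the cardiac partner of KCNQ1, at 0.28 ± 0.15 (SE), where control replicate 1, at 4.05, lay below the 4.58 to 4.79 of the other arrays; without that control it was 0.080.

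Several values rested on single arrays. Control replicate 3 held the highest value in 30 of 85 members (35.3%, against 20.8% of all genes). Without it 49 members in place of 60 differed below 0 (57.6%, against 58.6% of all genes). The median over members was then -0.026, against -0.024 over all genes. BL-8040 replicate 3 held the lowest value in 26 members (30.6%, against 30.5% of all genes) and the highest in 13. Per array, the median deviation of the 85 genes from their own 6-array mean was -0.02, -0.02 and -0.05 after BL-8040 and -0.02, 0.04 and 0.07 in controls, so control replicate 1 stood next to the treated arrays. The 6 members whose difference moved most without BL-8040 replicate 3 were KCNT2, KCNK2, KCNQ5, KCNMA1, KCNV1 and KCND3, picked after their values were seen. The mechanosensitive KCNK2 (TREK-1) was 5.05, 4.96 and 5.63 after BL-8040 against 5.09, 5.01 and 4.89, and its difference of 0.22 became 0.0094. KCND3, an A-type pore, was 3.50, 3.40 and 3.94 against 3.41, 3.43 and 3.50, and KCNV1, a silent modifier, 5.91, 5.66 and 6.28 against 5.74, 6.003 and 5.98. In the same array fibroblast markers had a list median of 0.31, against -0.14 to 0.08 in the other 5, and noradrenergic markers one of -0.33, against -0.04 to 0.27; the part of either in these channel values was not tested.

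**Figure D4:**
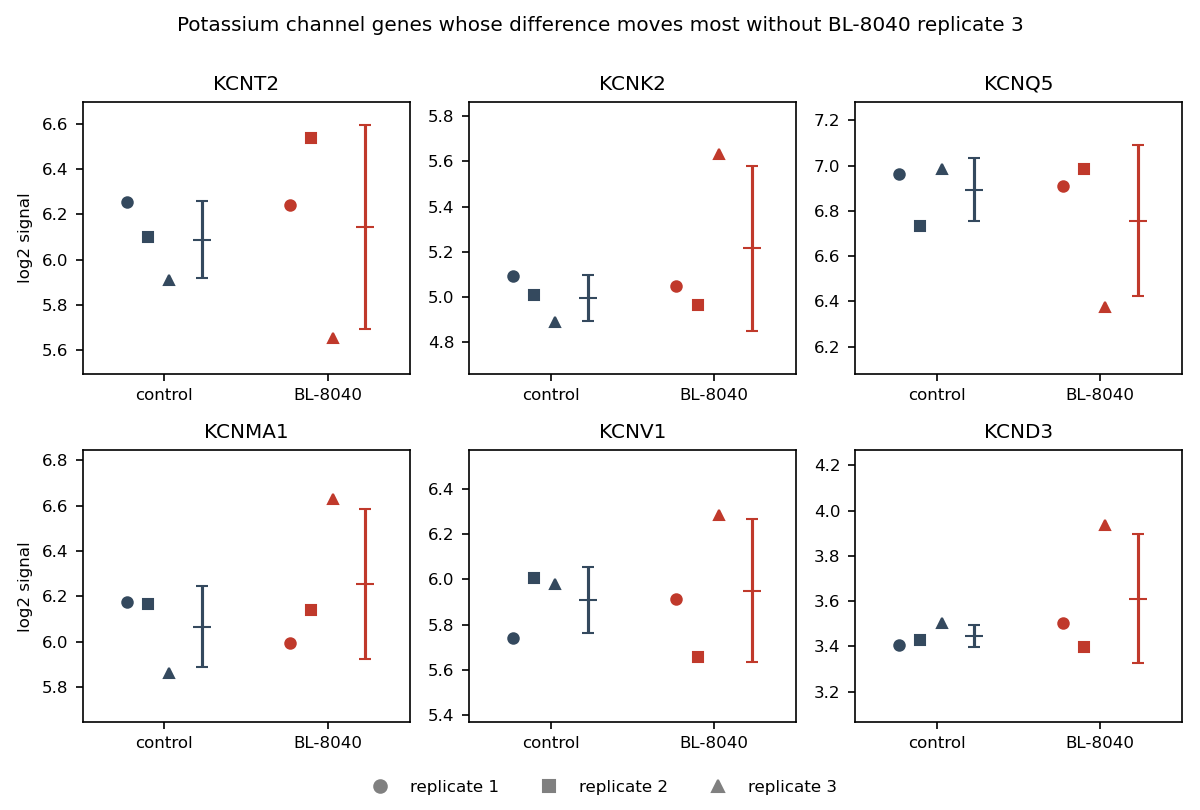
Log2 signal of the 6 potassium channel genes whose difference moves most when BL-8040 replicate 3 is left out; points are single arrays (triangle for replicate 3) and bars are the mean ± SD of 3 arrays. In KCNT2 and KCNQ5 this array is the lowest of the 6, in KCNK2, KCNMA1, KCNV1 and KCND3 the highest.

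Genes that work with potassium channels were read from lists outside the KCN symbols. Of 16 listed channel partners 14 were measured, 3 higher and 11 lower with a median of -0.09, and at an unadjusted limma p under 0.05 there was 1 of 14 (7.14%) in each direction, against 5.08% lower and 2.64% higher of all genes. The lower was ABCC9; the higher was REST, the repressor of neuronal genes including channels, at 6.64, 6.63 and 6.78 after BL-8040 against 6.55, 6.43 and 6.51, a difference of 0.18 ± 0.08 (SE) with an unadjusted limma p of 0.044. DPP6, which joins KCND pores, had separate groups at 4.79, 4.85 and 4.85 against 4.94, 4.94 and 5.02. Potassium pump subunits and cotransporters, which build the gradient, gave 9 measured genes of 14 listed, 4 higher and 5 lower. Their differences ran from -0.15 to 0.09, with 0 at an unadjusted limma p under 0.05. Of 3 measured HCN pacemaker channels, HCN2 was 6.70, 6.78 and 6.54 against 6.79, 6.89 and 6.93, a difference of -0.20 ± 0.09 (SE) with an unadjusted limma p of 0.046. None of these genes passed at an adjusted limma p under 0.05.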

How the data were processed

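Values were used as the authors deposited them, in a table of log2 signals for 6 arrays; that the scale is log2 was read from their range. The platform, Human Gene 1.0 ST, is named in the series' design text. The submitters' processing notes name Partek 6.6, and its settings for background, summarization and normalization were not given in the sources used here. Groups and replicate numbers came from the sample titles. Of 33297 probe sets, 19460 had 1 symbol in the platform annotation, 1754 several and 12083 none; those with several or none were not used. The brightest probe set was kept per gene. BL-8040 and control arrays (3 each) were compared over all 18417 genes by a moderated linear model (limma 3.58.1, R 4.3.3; functions lmFit and eBayes), two-sided, with Benjamini-Hochberg adjustment over all genes and a threshold of 0.05; the code was tested on simulated data. Differences are BL-8040 minus control in log2 units, folds their antilog, SE and 95% intervals moderated. The number of arrays limits precision: the interval of the median member reached 0.212 to each side. No detection call was used, so dim signals are given by percentile, which describes the probe set and not RNA abundance. The design text speaks of separate mice, so each array is read as 1 animal.

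The members and lists were chosen with earlier results of these data known. Genes with values in every array or as mean ± SD followed a rule: KCNJ8, members at an unadjusted p under 0.05, up to 10 per direction with separate groups, the brightest probe set of each family, and 13 measured genes of prior interest; 29 members met it. Others named are examples of their family or come from the lists; KCNT2, KCNV1 and KCND3, given in every array, lie outside the rule and were chosen after their values were seen. Alternatives were quantile normalization, median centring, filters on dim genes, the mean of probe sets, robust moderation with a variance trend, weights per array, a block for replicate number, stricter or looser thresholds, and leaving out each array. No sequences are shown.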

Additional observations from a re-analysis of the deposited data

How the results depend on the processing

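Under every alternative run, 0 of all genes and 0 potassium channel genes passed the adjusted limma threshold, also at 0.1, and the difference of KCNJ8 stayed below 0 with unadjusted limma p under 0.01 and adjusted p between 0.461 and 0.896. The 9 members at an unadjusted p under 0.05 became 3 of 17 among genes whose signal reached the median, 3 of 18 with a minimum of log2 6, and 2 at a threshold of 0.01; leaving out 1 array gave 7 to 12, of which 6 to 12 lower (3.14% to 6.16% of all genes) and 0 to 1 higher (1.78% to 3.82%; KCNJ1 without BL-8040 replicate 1, KCNT2 without BL-8040 replicate 3, KCNE1 without control replicate 2). After either rescaling 6 remained (KCNA6, KCNIP4, KCNJ8, KCNK6, KCNK12 and KCNN4). For the filters, the threshold of 0.01, the rescalings and the replicate block, the share over all genes is not given here. Those counts are therefore not read as more or fewer than in all genes. KCNJ8, KCNA6 and KCNK6 had an unadjusted limma p under 0.05 whichever array was left out. With 1 array left out the median over members lay between -0.087 (without control replicate 1) and -0.026 (without control replicate 3). Of the 29 members chosen by rule, 20 kept the sign of their difference. Array weights turned KCNA3 to 0.0091, KCNK3 to -0.057 and KCNK9 to -0.025; quantile normalization and median centring turned KCNMB4 to 0.011 and 0.019. With 1 array left out, differences lay between -0.10 and 0.024 for KCNA3, -0.079 and 0.0031 for KCNH2, -0.075 and 0.14 for KCNK3, -0.076 and 0.089 for KCNK9, -5e-05 and 0.32 for KCNMA1, -0.10 and 0.092 for KCNMB4, -0.27 and 0.036 for KCNN3, -0.11 and 0.11 for KCNQ3, and -0.25 and 0.056 for KCNQ5; the cause was not tested. The replicate numbers were not read as pairs in the main comparison. Deviations from the group means correlated at -0.04, 0.02 and 0.08 for same-numbered arrays, and between -0.09 and 0.07 for the others. Within a group these deviations sum to 0 over 3 arrays, so they cannot show whether the arrays were paired. With the replicate block 10 members had an unadjusted limma p under 0.05 and 0 were called.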
